A study of Mus musculus with 6 samples.

Results

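The retinoid genes described here are 9 genes that bind, make, break down or respond to retinoids, chosen by their symbols in the deposited gene table, where all 9 were found among 19618 genes listed. They are the cellular retinol-binding protein gene Rbp7, the retinoic acid-binding protein gene Crabp2, the retinol and retinal oxidoreductase genes Rdh10, Dhrs9 and Dhrs3, the retinal dehydrogenase gene Aldh1a3, the retinoic acid hydroxylase gene Cyp26b1 and the retinoic acid receptor genes Rara and Rarg. The set was put forward with the knockout-over-control changes of these same libraries in view, among them the fall of Rbp7. Their changes between genotypes are therefore given as a description, and the adjusted p-values printed with them are support for nothing.

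RNA was measured in keratinocytes taken from the tails of mice aged 4 months, in 2 groups of 3 libraries. The knockout mice carried K14cre, a transgene that expresses Cre recombinase from the keratin 14 promoter of basal keratinocytes, and the Gpr161Flox allele in homozygous form. The control mice had no K14cre in their label, and all carried Gpr161Flox: Control_1 as a homozygote, Control_2 and Control_3 as heterozygotes. No control therefore carried K14cre alone. Gpr161 encodes a ciliary receptor known as a restraint on Hedgehog signalling, and the comparison asks what changes in keratinocytes when it is deleted there. The tables name libraries by a running number, a tag and a genotype, without sample titles. Knockout libraries are therefore called DE679, DE685 and DE688, and control libraries DE680, DE684 and DE689. The columns follow the same order of genotypes as the samples, but no label ties a column to a sample. The control homozygous for Gpr161Flox was not matched to a tag.

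Retinol, or vitamin A, reaches a cell bound to a plasma carrier, can enter through the membrane receptor STRA6 and is held inside by cellular retinol-binding proteins. RDH10 and DHRS9 oxidize retinol to retinal, DHRS3 reduces retinal back to retinol, and ALDH1A enzymes turn retinal into retinoic acid in a step that is not reversed. CRABP2 passes retinoic acid to the nuclear receptors RARA, RARB and RARG, which bind DNA with RXR partners, and CYP26 enzymes break it down. In skin, retinoic acid is known for its control of keratinocyte differentiation, sebaceous glands and hair follicles, and RARG is the main epidermal receptor.

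Libraries held 17157864 to 25344399 estimated counts, and levels are given in CPM, a count scaled to the same library total, here with TMM factors that set libraries to a common scale. Gpr161 itself, counted over the whole gene, averaged 28.8 ± 4.23 CPM in knockout libraries and 31.4 ± 1.10 CPM in controls (SD over 3 libraries), with an adjusted p of 0.553 in the edgeR quasi-likelihood test, so it does not check the labels. The Hedgehog target genes Gli1 (log2 fold change 2.93, edgeR adjusted p 1.77e-05) and Ptch1 (1.58, edgeR adjusted p 0.00228) were higher in the libraries labelled knockout. Arhgap9 and Gm47200 share exonic positions with Gli1 on the other strand. Each group held 1 library with Y-linked transcripts, DE685 in the knockout and DE684 in the control. Keratinocyte markers were abundant in every library: the 8 basal markers summed to 31444 to 35252 CPM in the knockout and 27353 to 32401 CPM in the control. Nothing in the labels says which libraries shared a preparation, so p-values measure the spread between these samples.

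RefSeq promoter windows in the GRCm38.p6 build matched 6 of the 9 genes, Rbp7, Rara, Rarg, Dhrs9, Dhrs3 and Cyp26b1, with 12 windows among them. Shown here are the sequences before the starts of Rbp7 and Cyp26b1, the genes whose levels were called lower, and of the Rara window with the most retinoid receptor half-sites. Each runs 5′ to 3′ along the gene's strand and stops before any annotated exon. Capitals mark the GC box GGGCGG, read on either strand, in Rbp7 and Cyp26b1, and the retinoid receptor half-sites (the letters AGGTCA, or with other bases GGTTCA, or as AGTTCA, or else as GGGTCA), read on either strand, in Rara.
Rbp7, chr4:149454979-149455218, minus strand: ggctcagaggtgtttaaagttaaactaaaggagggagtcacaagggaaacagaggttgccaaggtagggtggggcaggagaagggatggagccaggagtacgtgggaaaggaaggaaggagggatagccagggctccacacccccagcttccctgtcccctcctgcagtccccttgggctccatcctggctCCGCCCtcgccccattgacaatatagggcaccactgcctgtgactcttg
Cyp26b1, chr6:84593909-84594060, minus strand: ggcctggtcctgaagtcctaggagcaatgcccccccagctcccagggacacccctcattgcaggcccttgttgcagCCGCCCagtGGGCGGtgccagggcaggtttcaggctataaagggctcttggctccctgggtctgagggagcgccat
Rara, chr11:98939461-98939710, plus strand: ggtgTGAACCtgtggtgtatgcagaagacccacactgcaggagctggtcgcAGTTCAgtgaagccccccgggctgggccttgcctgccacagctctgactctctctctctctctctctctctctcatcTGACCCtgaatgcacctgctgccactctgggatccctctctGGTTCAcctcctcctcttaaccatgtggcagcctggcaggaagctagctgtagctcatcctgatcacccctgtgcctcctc

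In the 250 bases before a RefSeq start, a GC box was present in 7 of the 12 windows, covering Rbp7, Cyp26b1, Rara, Rarg and Dhrs9, against 32.7% of 32851 windows of all genes. The 12 windows were not all separate. Those of Rara from 98937446 and 98937468 overlap and hold the same GC boxes, and those of Dhrs3 from 144892827 and 144892887 overlap. A retinoid half-site was present in 3 of the 12 windows, 1 each of Rara, Rarg and Dhrs9, against 38.6% of all windows. None of the 12 held half-sites of these 4 spellings as a direct repeat with a 5-base spacer, a form that occurred in 0.0883% of all windows. The Gli site GACCACCCA was in 0 of the 12 and in 0.225% of all windows. These matches describe letters in short windows and no binding was measured.

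Across the 9 genes, 2 were called lower in the knockout and 0 higher, where a call means an edgeR quasi-likelihood p of less than 0.05 after adjustment over all genes. Of the 15422 genes tested, 1.6% were called in either direction, 0.357% lower and 1.24% higher. The called genes were Rbp7 and Cyp26b1. All 9 passed the filter on low counts, and 4 of them had an unadjusted p under 0.05, as did 19% of all genes tested. Knockout and control values were fully apart for 5 of the 9, Rbp7, Rdh10 and Cyp26b1 with every knockout library lower and Rara and Dhrs3 with every knockout library higher. Groups did not overlap for 25.6% of all genes tested. The median log2 fold change was 0.077 over the 9 genes and −0.0036 over all genes tested. Since fewer cells of a type and less RNA per cell cannot be told apart in bulk samples, each value is a level in the whole preparation.

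**Figure D1:**
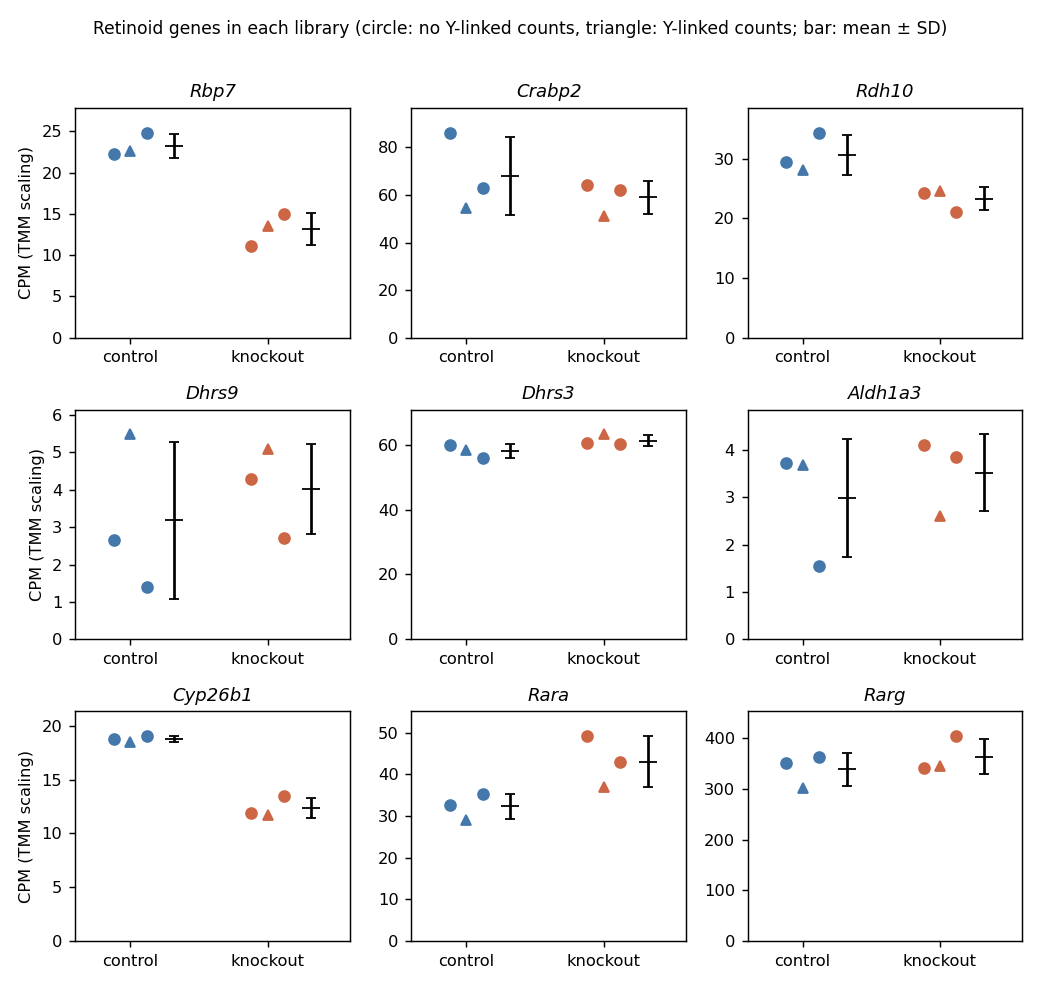
CPM (TMM scaling, axis from 0) of each of the 9 genes in the 3 control and 3 knockout libraries, with triangles for the library with Y-linked counts in each group and bars for the mean ± SD. For Rbp7, Rdh10 and Cyp26b1 all knockout points lie under all control points, while the points of Crabp2, Dhrs9, Aldh1a3 and Rarg intermix.

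Among the binding proteins, Rbp7 had the largest fall of the 9 genes. Rbp7 (ENSMUSG00000028996.9, chromosome 4, 149449687 to 149454978, minus strand, GRCm38) encodes a small cytosolic carrier of retinol. It was at 11.1, 13.5 and 14.98 CPM in DE679, DE685 and DE688, and at 22.3, 22.5 and 24.8 CPM in DE680, DE684 and DE689. The highest knockout library was below the lowest control library, and the means were 13.2 ± 1.95 and 23.2 ± 1.40 CPM (SD, n = 3 each). On the log2 scale the change was −0.81 (SE 0.12, edgeR adjusted p 0.0241), or 0.569 of the control level. The call held without DE688 (edgeR adjusted p 0.0478) and was lost in the 5 other fits that left out one library, with adjusted p up to 0.0850 and log2 fold changes of −0.92 to −0.70.

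Crabp2 (ENSMUSG00000004885.5, chromosome 3, 87948666 to 87953376, plus strand) encodes the protein that carries retinoic acid to its receptors. It stood at 64.2, 51.1 and 61.9 CPM in DE679, DE685 and DE688, and at 86.2, 54.4 and 63.0 CPM in DE680, DE684 and DE689. The groups overlapped, and the lowest library of each group was the one with Y-linked transcripts. Crabp2 had a log2 fold change of −0.20 with a 95% interval of −0.59 to 0.19 (edgeR adjusted p 0.557). That value rested on DE680, without which it was 0.0086.

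Of the enzymes that exchange retinol and retinal, Rdh10, Dhrs9 and Dhrs3, 0 of 3 were called. Rdh10 (ENSMUSG00000025921.7, chromosome 1, 16105774 to 16133734, plus strand), which oxidizes retinol to retinal, was at 24.3, 24.5 and 21.0 CPM in DE679, DE685 and DE688, and at 29.5, 28.1 and 34.4 CPM in DE680, DE684 and DE689. Every knockout library lay below every control library. Its log2 fold change of −0.40 (SE 0.11, 95% interval −0.64 to −0.15) had an edgeR adjusted p of 0.112, short of the threshold. With the DESeq2 Wald test its adjusted p was 0.0386. Rdh10 did not pass in 8 of the 9 alternatives that kept all libraries, nor in the 6 fits that left out one library (edgeR adjusted p 0.140 to 0.308).

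Dhrs9 (ENSMUSG00000027068.6, chromosome 2, 69380445 to 69404533, plus strand), another enzyme able to oxidize retinol, was low and varied most between libraries. It was at 4.28, 5.08 and 2.72 CPM in DE679, DE685 and DE688 and at 2.66, 5.48 and 1.39 CPM in DE680, DE684 and DE689, from 35 to 125 estimated counts. The library with Y-linked transcripts was the highest in each group, and the groups overlapped. For Dhrs9 the log2 fold change of 0.34 had a 95% interval of −0.76 to 1.44 (edgeR adjusted p 0.739) and moved between −0.022 (without DE689) and 0.99 (without DE684), so no direction can be given.

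Dhrs3 (ENSMUSG00000066026.14, chromosome 4, 144892827 to 144928209, plus strand) reduces retinal to retinol and is a known retinoic acid-induced gene. Its levels were the most even of the 9 over all libraries: 60.6, 63.2 and 60.1 CPM in DE679, DE685 and DE688, and 60.0, 58.3 and 56.0 CPM in DE680, DE684 and DE689. The knockout libraries were all above the control libraries, though the lowest of them, 60.1 CPM, was next to the highest control, 60.0 CPM. Dhrs3 had a log2 fold change of 0.077 (95% interval −0.060 to 0.22, edgeR adjusted p 0.515).

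Aldh1a3 (ENSMUSG00000015134.15, chromosome 7, 66390890 to 66427517, minus strand) encodes a dehydrogenase that makes retinoic acid from retinal. It was scarce, at 4.11, 2.60 and 3.85 CPM in DE679, DE685 and DE688 and at 3.73, 3.69 and 1.55 CPM in DE680, DE684 and DE689, or 39 to 99 estimated counts. DE689 stood low among the controls and the groups overlapped. Its log2 fold change of 0.25 had a 95% interval of −0.59 to 1.08 (edgeR adjusted p 0.752), and without DE689 it was −0.065.

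Cyp26b1, the enzyme gene at the other end of the pathway, was the second gene of the set called lower. Cyp26b1 (ENSMUSG00000063415.12, chromosome 6, 84571414 to 84593908, minus strand) encodes a cytochrome P450 that hydroxylates retinoic acid and so clears it. It was at 11.9, 11.7 and 13.5 CPM in DE679, DE685 and DE688, and at 18.8, 18.5 and 19.0 CPM in DE680, DE684 and DE689. The control libraries were nearly level, with a coefficient of variation of 1.40%, and all stood above the knockout libraries. Knockout libraries averaged 12.3 ± 0.970 CPM and controls 18.8 ± 0.264 CPM (SD, n = 3 each). Cyp26b1 thus fell by 0.60 on the log2 scale (SE 0.095, edgeR adjusted p 0.0292). With any one of the 6 libraries removed the direction was kept, from −0.67 to −0.57, and the call was lost, with adjusted p of 0.0613 to 0.130.

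The receptor genes were both above the control on average, without a call. Rara (ENSMUSG00000037992.16, chromosome 11, 98927818 to 98974942, plus strand) was at 49.2, 37.0 and 43.0 CPM in DE679, DE685 and DE688, and at 32.6, 29.1 and 35.2 CPM in DE680, DE684 and DE689. The groups did not overlap, and the library with Y-linked transcripts was the lowest of its group in both. For Rara this gave a log2 fold change of 0.42 (SE 0.12, 95% interval 0.14 to 0.69, edgeR adjusted p 0.132). Rara passed the threshold with the DESeq2 Wald test (adjusted p 0.0333) and in the edgeR fit with a sex covariate (adjusted p 0.0471). It did not pass in 7 of the 9 alternatives that kept all libraries. Nor did it pass in the 6 fits that left out one library (edgeR adjusted p 0.101 to 0.371).

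Rarg (ENSMUSG00000001288.15, chromosome 15, 102234938 to 102257517, minus strand) was at 341, 346 and 404 CPM in DE679, DE685 and DE688 and at 352, 301 and 363 CPM in DE680, DE684 and DE689. The groups overlapped, with a log2 fold change of 0.10 (95% interval −0.12 to 0.33, edgeR adjusted p 0.598). No exon of the 9 genes overlaps an exon of another gene in GENCODE M21.

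**Figure D2:**
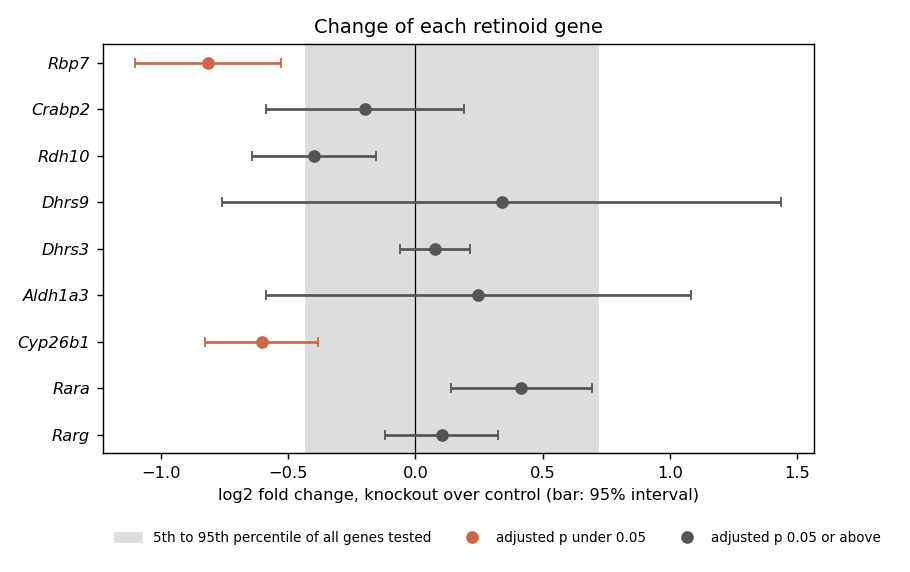
Log2 fold change of knockout over control for each of the 9 genes, with 95% intervals as bars and a grey band from the 5th to the 95th percentile of all 15422 genes tested (−0.43 to 0.72). Only Rbp7 and Cyp26b1, in orange, had an adjusted p under 0.05, and the intervals of Dhrs9 and Aldh1a3 are the widest.

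Per length of exon, the genes spanned a wide range. In the control, mean levels in CPM per kb were 79.5 for Rarg, 51.3 for Crabp2, 32.3 for Rbp7, 19.9 for Dhrs3, 7.40 for Rara, 7.37 for Rdh10, 3.51 for Cyp26b1, 0.742 for Dhrs9 and 0.647 for Aldh1a3. Neighbours in this order had separate ranges over the 3 libraries apart from Rara with Rdh10 and Dhrs9 with Aldh1a3. In the knockout, Rbp7 at 15.5 to 20.9 CPM per kb overlapped Dhrs3 at 20.5 to 21.6 CPM per kb, while in the control Rbp7 at 31.0 to 34.6 lay above Dhrs3 at 19.1 to 20.5. Rara at 8.47 to 11.3 CPM per kb lay above Rdh10 at 5.06 to 5.90 in the knockout, where the control ranges overlapped. Lengths were those of all annotated exons of a gene in GENCODE M21. With the longest transcript instead, the order of the means changed for Dhrs9 and Aldh1a3 alone. The ranges depend on the length used, and by the longest transcript Rbp7 lay below Dhrs3 in the knockout without overlap (means 21.3 and 26.2 CPM per kb).

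**Figure D3:**
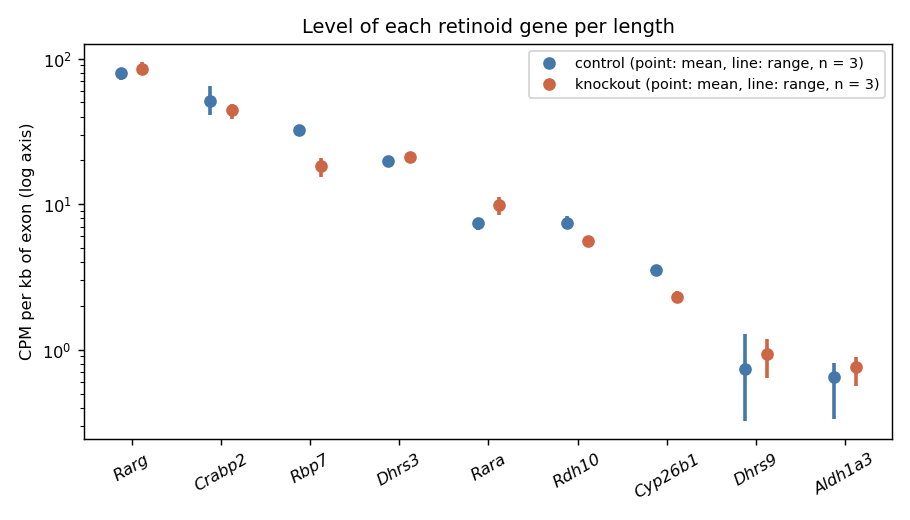
Level of each of the 9 genes in CPM per kb of exon on a log axis, with points for the mean and lines for the range over 3 libraries per group. By the length of all annotated exons, Rbp7 is above Dhrs3 in the control and overlaps it in the knockout.

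Other genes of retinoid handling were listed by role: 61 genes besides the 9, of which 48 were tested. Of these, 2 rose in the knockout and 0 fell by the same edgeR rule, and 5 of 48 had an unadjusted p under 0.05, beside the 19% of all genes. The share called, 2 of 48, stands beside 1.6% of all genes tested. Their median log2 fold change was −0.040, with 20 genes above 0 and 28 below. Groups did not overlap for 8 of the 48, beside 25.6% of all genes tested. The genes that rose were Cyp2s1 and Tgm2.

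Cyp2s1, a cytochrome P450 known to metabolize retinoic acid in skin, moved opposite to Cyp26b1. It was at 41.2, 35.5 and 40.3 CPM in DE679, DE685 and DE688, and at 21.1, 20.5 and 24.7 CPM in DE680, DE684 and DE689. This was a rise of 0.82 on the log2 scale (SE 0.10, edgeR adjusted p 0.0116), with every knockout library above every control library. Tgm2, the tissue transglutaminase gene and a known retinoic acid-induced gene, was at 11.7, 13.5 and 11.6 CPM in DE679, DE685 and DE688 and at 6.43, 5.31 and 6.78 CPM in DE680, DE684 and DE689, also without overlap. Its log2 fold change was 0.99 (SE 0.14, edgeR adjusted p 0.0198). Leaving out one library ended the call in 3 of 6 fits for Cyp2s1 (without DE679, DE680 or DE688) and in 5 of 6 for Tgm2, all but the fit without DE689. Exons of Cyp2s1 overlap those of Gm26707, and exons of Tgm2 those of Gm20412 and Rprd1b, all on the other strand. Whether reads were counted by strand is not given in the sources used here.

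Stra6, the gene of the membrane receptor for plasma retinol-binding protein, had the widest fold of the listed genes without a call. It was at 6.40, 18.1 and 7.23 CPM in DE679, DE685 and DE688, and at 24.3, 33.0 and 44.2 CPM in DE680, DE684 and DE689. The knockout libraries were all lower, and DE685 stood apart from the other knockouts. The fitted difference of Stra6 was −1.70 on the log2 scale (SE 0.40, edgeR adjusted p 0.0901). Without DE685 it was −2.31 with an edgeR adjusted p of 0.0224, and Stra6 also passed with the DESeq2 Wald test (adjusted p 0.0348) and the sex covariate (adjusted p 0.0382). In the 5 other fits that left out one library it did not pass (edgeR adjusted p 0.122 to 0.266), with log2 fold changes as small as −1.43 (without DE679), and it did not pass in 7 of the 9 alternatives that kept all libraries.

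**Figure D4:**
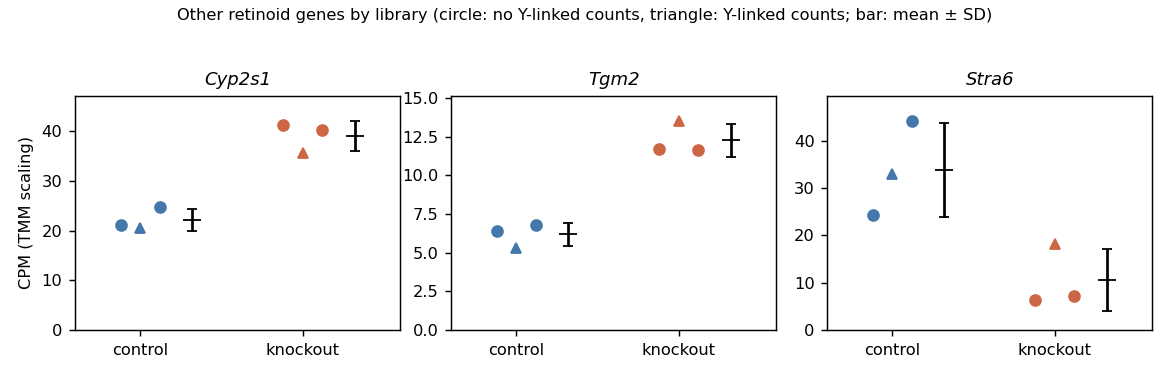
CPM (TMM scaling, axes from 0) of Cyp2s1, Tgm2 and Stra6 in the 3 control and 3 knockout libraries, with triangles for the libraries with Y-linked counts and bars for the mean ± SD. The groups are apart for all 3 genes, higher in the knockout for Cyp2s1 and Tgm2 and lower for Stra6.

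By role, 0 of 5 tested genes of binding and uptake were called, 0 of 7 of ester storage and release, 0 of 16 further oxidoreductases, 0 of 4 of the retinal dehydrogenase and carotenoid cleavage list, and 1 of 1 tested hydroxylase (Cyp2s1). Among nuclear receptors and coregulators 0 of 9 were called. In the list of retinoic acid response genes 1 of 8 was called, Tgm2. Each of these counts stands beside 1.6% of all genes tested. In the response gene list 3 log2 fold changes were above 0 and 5 below, with a median of −0.28. The retinoic acid-inducible receptor gene Rarb was too low to be tested, at 0.256 ± 0.134 CPM in knockout libraries and 0.147 ± 0.154 CPM in controls (SD, n = 3 each). Aldh1a2, Cyp26a1 and Cyp26c1 were not among the 19618 genes listed, so no level can be given for them.

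The pathway genes named whatever their values gave no further call. The receptor partner Rxra had a log2 fold change of 0.15 (edgeR adjusted p 0.332) and Rxrb of −0.022 (edgeR adjusted p 0.915). Fabp5, a fatty acid-binding protein that also binds retinoic acid, was at 670 ± 223 CPM in knockout libraries and 871 ± 116 CPM in controls (SD, n = 3 each; edgeR adjusted p 0.378). Lrat, which esterifies retinol for storage, was at 4.20 ± 2.08 and 5.77 ± 0.303 CPM (edgeR adjusted p 0.480), and the oxidoreductase gene Rdh11 at 183 ± 28.3 and 205 ± 24.0 CPM (edgeR adjusted p 0.503). Aldh1a1 (1.53 ± 0.978 against 1.10 ± 0.126 CPM), Crabp1 (1.33 ± 0.228 against 1.34 ± 0.619 CPM) and Rbp4 (0.330 ± 0.122 against 0.757 ± 0.520 CPM) were near the lowest levels tested.

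**Figure D5:**
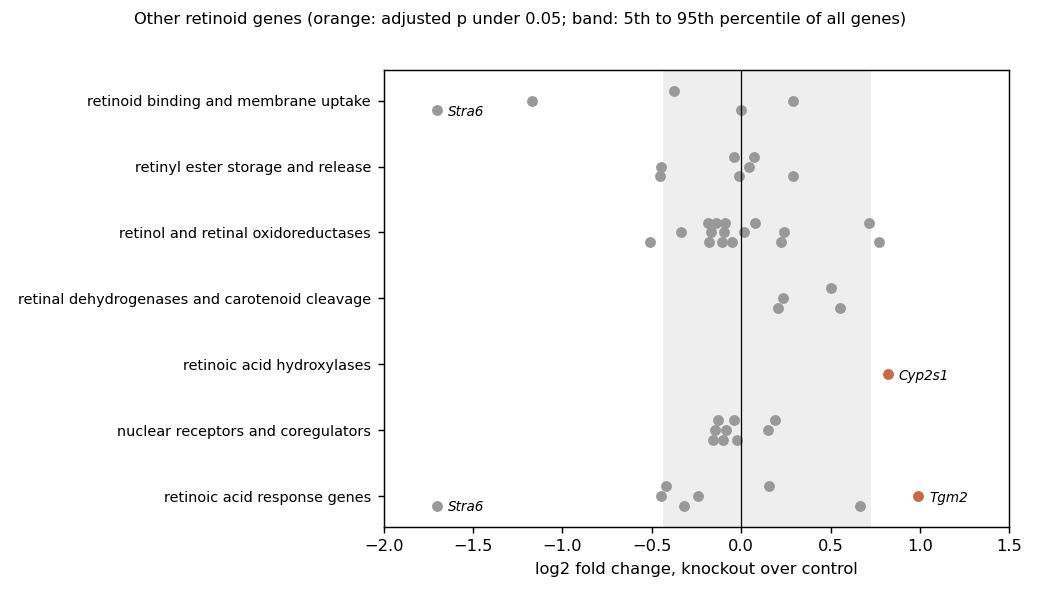
Log2 fold change of knockout over control for the 48 other retinoid genes tested, in rows by role, with genes in 2 lists drawn in both. Orange points (Cyp2s1, Tgm2) had an adjusted p under 0.05, the grey band spans the 5th to the 95th percentile of all genes tested, and Stra6 lies farthest to the left.

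Markers of the cell types that a tail preparation could hold were read beside these genes, with a share called of 1.6% over all genes tested. Rbp7 is known from endothelium and fat. The 7 endothelial markers, with 0 of 6 tested called, summed to 4.62 to 5.52 CPM in the knockout and 5.28 to 8.42 CPM in the control, and the 5 adipocyte markers in the table to 5.39 to 7.34 and 5.06 to 7.97 CPM. Both sums were below the level of Rbp7 alone in every library, but levels of different genes do not measure how many cells of a type were present. Of the tested endothelial markers 5 of 6 had a log2 fold change below 0. Cdh5 was lower in every knockout library (0.231 to 0.428 against 0.436 to 0.790 CPM), as was Cldn5 (0.466 to 0.635 against 0.932 to 1.23 CPM). Vwf was higher in every knockout library (1.09 to 1.36 against 0.555 to 1.01 CPM). These 3 genes were near the lowest levels tested. Groups did not overlap for 3 of the 6 tested endothelial markers, beside 25.6% of all genes tested. The part of endothelial or fat cells in the level and fall of Rbp7 was not tested. Differentiated keratinocyte markers summed to 27901 to 37564 CPM in the knockout and 32350 to 54269 CPM in the control, with 9 of 10 log2 fold changes below 0 and 1 gene called (Krt77, higher). The part of this list in the falls of Rbp7 and Cyp26b1 was not tested. Sums over hair follicle markers were 2668 to 3055 against 2029 to 2520 CPM (1 of 8 called, Nfatc1, higher). Melanocyte markers reached 76.2 to 113 against 53.4 to 75.6 CPM (0 of 6 called). Both of these sums lay higher in every knockout library, as did Cyp2s1 and Tgm2, and their part in those rises was not tested. Krt79 made up most of the hair follicle sum, at 2086 to 2326 against 1603 to 2098 CPM, and its groups overlapped. In the hair follicle list 7 log2 fold changes were above 0 and 1 below. Fibroblast markers summed to 148 to 173 against 67.0 to 104 CPM, a gap carried by Dcn (1 of 6 tested called, higher). Without Dcn the fibroblast sums were 35.6 to 49.7 against 32.6 to 63.3 CPM and overlapped, and over the list 3 log2 fold changes were above 0 and 3 below, with a median of −0.17. Sebaceous markers overlapped between groups (6591 to 7625 against 6867 to 7780 CPM), as did immune markers (52.7 to 123 against 27.3 to 104 CPM) and the 2 skeletal muscle markers in the table (1.56 to 1.82 against 1.38 to 2.19 CPM). Log2 fold changes were above 0 for 4 of 8 sebaceous, 6 of 6 tested immune and 6 of 6 melanocyte markers. Of the basal keratinocyte markers 6 of 8 were above 0, with 0 called. Groups did not overlap for 4 of these 8, all higher in the knockout, beside 25.6% of all genes tested.

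The genes whose pattern over the 6 libraries was most like that of Rbp7 were Mapre1, Uchl5, Magohb, Cnbp and Cnfn, by Pearson correlation of log2(CPM + 1) among 13664 other genes with a mean of at least 1 CPM. Their correlations were 0.997, 0.996, 0.996, 0.996 and 0.995, and all 5 were lower in every knockout library. That was close to fixed by choosing them for their match to Rbp7, so it is support for nothing. Groups did not overlap for 25.6% of all genes tested. The log2 fold changes of the 5 were smaller than that of Rbp7, from −0.15 for Mapre1 to −0.40 for Cnfn, a gene of the cornified envelope. Of the 5, Cnfn passed the threshold (edgeR adjusted p 0.0466). Its call was lost with upper-quartile factors (edgeR adjusted p 0.0539) and with any 1 of the 6 libraries removed (0.0799 to 0.153), while DESeq2 also called Uchl5 (adjusted p 0.0202) and Cnbp (adjusted p 0.00792).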

How the data were processed

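Polyadenylated RNA of tail keratinocytes was sequenced from stranded libraries, per the labels' protocols. The submitters' processing notes name bcl2fastq 2.20, cutadapt 1.18, STAR 2.7.0f and Partek, with no roles, and build mm10. The annotation and the strand setting of the counting are not given in the sources used here. The authors deposited estimated counts per gene, 53.0% to 57.7% of them exactly whole in a library, and a normalized signal per gene, whose ratio to CPM with TMM scaling was 0.997 to 1.00 for genes above 1 CPM. The deposited Stop is 1 above the annotated gene end, and ends are printed as annotated.

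Counts were rounded, low genes removed with filterByExpr, and 15422 genes fitted with genotype as the only term by edgeR 4.0.16 (glmQLFit, glmQLFTest, TMM factors 0.975 to 1.03). The design had assumed raw counts. Benjamini-Hochberg adjustment ran over all genes tested, at a threshold of 0.05. The SE is the log2 fold change over the root of F, and 95% intervals use it. Levels per length divide CPM by exon length from GENCODE M21. The fit was tested on simulated data. At 3 libraries a group, the smallest p of an exact permutation test (two-sided) is 0.1, so the model across genes was used for every gene.

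The 9 genes and the lists were chosen with earlier results of these data known. Named genes were the 9, Gpr161, Gli1, Ptch1, each listed retinoid gene past the threshold, 12 fixed pathway genes where tested, and the 5 most like Rbp7. A further listed gene is not reported here. Krt77, Krt79, Nfatc1, Dcn, Cdh5, Cldn5 and Vwf were named after their values were seen. Alternatives were other factors and filters, DESeq2 1.42.0, limma 3.58.1 (voom, and trend on log2 of the authors' values plus 1 or 0.1), a sex covariate read from Xist and Y-linked genes, and each library left out in turn.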

Additional observations from a re-analysis of the deposited data

How the results depend on the processing

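Of the 9 retinoid genes, 2 were called, and this count was the same with RLE or upper-quartile factors, no filter, a mean of at least 1 CPM, limma-voom and limma on the authors' values. DESeq2 called 4 (Rara and Rdh10 added), the sex covariate 3 (Rara added), and the fits without one library 0 to 1. Of the other retinoid genes 2 were called, against 4 with DESeq2 (Stra6 and Rdh13 added, the latter named after its values were seen), 3 with the sex covariate (Stra6 added) and 0 to 2 without one library. Over all genes 247 were called, 77.7% of them higher, against 864 with DESeq2 (64.7% higher), 409 with the sex covariate and 69 to 121 without one library. The fits without one library hold fewer libraries, and the cause of these shifts was not tested. The log2 fold change of Crabp1, −0.00011, turned to 0.0025 with RLE factors, 0.016 with upper-quartile factors, 0.0034 with a mean of at least 1 CPM, 0.13 with limma-voom, and 0.022 and 0.073 with limma on the authors' values plus 1 and plus 0.1. Without one library, changes of sign were seen for Crabp2 (−0.34 to 0.0086), Aldh1a3 (−0.065 to 0.44), Dhrs9 (−0.022 to 0.99), Crabp1 (−0.31 to 0.37), Aldh1a1 (−0.15 to 0.79), Rxrb (−0.085 to 0.037), Adh1 (−0.62 to 0.082) and Rarres1 (−0.75 to 0.25), none of them called in these fits. Gli1, Ptch1, Nfatc1 and Dcn passed in all 6 such fits, and Krt77 in 1. No paired analysis was possible because the columns carry no replicate numbers. A count of 3 is 0.117 to 0.173 CPM in these libraries, which covers counting error only, and among the 9 genes Dhrs9 and Aldh1a3 had the fewest counts.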

Other observations

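The libraries with Y-linked transcripts, 1 in each group, stood at the same extreme of both groups for 4 of the 9 genes. They were highest for Dhrs9, and lowest for Crabp2, Rara and Cyp26b1. Among the 48 other retinoid genes tested they were highest in both groups for 10 and lowest in both for 9. Over all 15422 genes tested, the shares were 13.9% and 15.7%. The alcohol dehydrogenase gene Adh1, which can oxidize retinol, was at 293 CPM in DE685 against 127 and 140 CPM in the other knockout libraries, and at 266 CPM in DE684 against 169 and 183 CPM in the other controls. Rarres1, a retinoid-responsive gene, was at 78.4 CPM in DE685 against 35.4 and 32.6 CPM, and at 90.8 CPM in DE684 against 44.5 and 36.9 CPM. Both were named after their values were seen. With 1 such library in each group, sex and other properties of these mice cannot be told apart.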
